A study of Mus musculus with 42 samples.

Results

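Voltage-gated sodium channel alpha subunits were followed in the nodose ganglion (NG) and the dorsal root ganglion (DRG) of mice of the inbred strain BALB/c. The members were all probe sets annotated to exactly 1 of 9 gene symbols: Scn1a, Scn2a, Scn3a, Scn4a, Scn7a, Scn8a, Scn9a, Scn10a and Scn11a. A probe set is the group of short oligonucleotides that reads 1 transcript on an Affymetrix GeneChip. On MG-U74Av2, 8 of 12488 probe sets met the rule and read 6 genes, with 2 each for Scn1a and Scn8a and 1 each for Scn3a, Scn7a, Scn9a and Scn10a. On Mouse430_2, 24 of 45101 probe sets met it and read 8 genes, with 5 each for Scn8a and Scn9a, 4 for Scn2a, 3 each for Scn1a and Scn7a, 2 for Scn3a and 1 each for Scn10a and Scn11a. Scn4a, the channel of skeletal muscle, matched no probe set by this rule.

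The 42 arrays formed 6 groups of mice that received no treatment beyond ordinary housing. Whole ganglia were lysed in the first experiment and read on MG-U74Av2, with 7 NG and 5 DRG samples. Neurons cut out by laser capture microdissection, about 150 per sample, were read on MG-U74Av2 in the second experiment (5 NG and 5 DRG samples) and on Mouse430_2 in the third (11 NG and 9 DRG samples). The labels call the captured cells visceral sensory neurons, and how they were recognised, the age and the sex of the mice are not given in the sources used here. One label describes all 42 samples as captured cells. For the first experiment it conflicts with the protocol, which starts from lysed whole ganglia, and the protocol was followed. Labelling started from about 12 µg of RNA, named as amplified for the captured neurons on MG-U74Av2. No label ties a sample to an animal of its own, and the p-values below thus reflect sample-to-sample spread, part of which may be technical.

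Alpha subunits form the pore of voltage-gated sodium channels, which carry the inward current that starts and propagates the action potential. Sensory neurons hold several of them at once. Channels of Scn1a, Scn2a, Scn3a, Scn8a and Scn9a are blocked by nanomolar tetrodotoxin, while those of Scn10a and Scn11a resist the toxin and are typical of small-diameter nociceptors and many vagal afferents. Scn7a encodes an atypical relative that responds to extracellular sodium rather than to voltage and is also made by glia. The NG holds the cell bodies of vagal afferents from the viscera, and the DRG holds those of spinal afferents.

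In the RefSeq table of assembly GRCm38.p6, Scn3a, Scn2a, Scn1a, Scn9a and Scn7a follow each other in this order on chromosome 2, with 3 other protein-coding genes between Scn2a and Scn1a and none between the other neighbours. Scn10a and Scn11a adjoin each other on chromosome 9, Scn4a lies on chromosome 11 and Scn8a on chromosome 15. RefSeq promoter windows of GRCm38.p6, from 250 bases before to 50 bases after a gene's start, were matched for 8 of the 9 genes (10 windows, since Scn2a and Scn8a have 2 starts each), and Scn3a was not matched. The windows of 5 genes are printed because these genes lie side by side on their chromosomes and yet gave different NG minus DRG values below. All 5 lie on the minus strand, at chr2:66440788-66441087 for Scn1a, chr2:66634913-66635212 for Scn9a, chr2:66784861-66785160 for Scn7a, chr9:119718983-119719282 for Scn10a and chr9:119825407-119825706 for Scn11a. They are written 5′ to 3′ along the gene, and capitals mark TAAT or its reverse complement ATTA, the core bound by many homeodomain factors.
Scn1a: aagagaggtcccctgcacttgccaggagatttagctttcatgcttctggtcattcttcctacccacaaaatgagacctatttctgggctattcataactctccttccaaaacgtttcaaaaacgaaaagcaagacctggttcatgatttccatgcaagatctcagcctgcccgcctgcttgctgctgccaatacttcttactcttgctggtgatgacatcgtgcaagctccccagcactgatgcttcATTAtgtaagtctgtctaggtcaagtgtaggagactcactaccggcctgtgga
Scn9a: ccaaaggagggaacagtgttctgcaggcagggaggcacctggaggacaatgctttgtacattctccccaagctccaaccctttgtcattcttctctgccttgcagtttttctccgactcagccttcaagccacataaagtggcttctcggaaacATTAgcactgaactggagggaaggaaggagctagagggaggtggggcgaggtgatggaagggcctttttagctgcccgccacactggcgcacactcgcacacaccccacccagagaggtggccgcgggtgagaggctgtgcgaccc
Scn7a: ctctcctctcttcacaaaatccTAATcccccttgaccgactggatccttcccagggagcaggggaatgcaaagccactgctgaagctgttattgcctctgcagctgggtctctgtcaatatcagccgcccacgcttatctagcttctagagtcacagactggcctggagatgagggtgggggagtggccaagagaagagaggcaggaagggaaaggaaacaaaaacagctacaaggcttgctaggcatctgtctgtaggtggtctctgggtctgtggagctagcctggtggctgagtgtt
Scn10a: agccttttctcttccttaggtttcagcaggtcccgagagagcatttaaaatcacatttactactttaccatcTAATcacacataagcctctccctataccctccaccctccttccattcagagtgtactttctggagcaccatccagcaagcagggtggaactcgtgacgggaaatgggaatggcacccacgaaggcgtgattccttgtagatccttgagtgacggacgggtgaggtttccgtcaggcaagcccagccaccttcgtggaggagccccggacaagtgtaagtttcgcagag
Scn11a: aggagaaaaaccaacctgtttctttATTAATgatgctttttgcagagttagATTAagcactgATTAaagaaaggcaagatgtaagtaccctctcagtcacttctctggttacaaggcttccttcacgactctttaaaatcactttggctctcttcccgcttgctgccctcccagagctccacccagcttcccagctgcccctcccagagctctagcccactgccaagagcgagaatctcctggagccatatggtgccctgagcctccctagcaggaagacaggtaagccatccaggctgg
The TAAT core, searched on both strands, occurred 4 times in the Scn11a window, where a pair of matches overlaps, and 1 time each in those of Scn1a, Scn9a, Scn7a and Scn10a. It was present in 7 of the 10 sodium channel windows and in 58.0% of all 32851 RefSeq windows of the same length, so a match is common. The Scn8a windows are not printed; they held 38 and 12 CG dinucleotides at the 2 starts, against 3 to 11 in the 5 printed ones.

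Some facts of the whole series touch the results below. Of the DRG identity markers (Prrxl1, Tlx3 and Hox genes), 5 were tested on Mouse430_2. Of these, 4 were lower in NG neurons (12.5% of all probe sets tested) and 1 was higher (9.72%). Markers of satellite glia and Schwann cells remained bright after capture. On MG-U74Av2 their summed signal over 10 genes was 12824 to 13718 in captured NG and 18264 to 22730 in whole NG, and 14978 to 17362 in captured DRG against 18334 to 21743 in whole DRG. Captured samples that carry the same ganglion and number on both array types resembled each other: over 5331 genes their deviations from the group means correlated at 0.204 to 0.468 in 10 pairs, against -0.256 to 0.221 in 90 pairs with different numbers. The Mouse430_2 arrays are therefore not treated as an independent repeat of the captured MG-U74Av2 arrays. Trimmed mean signals before scaling spanned 174.9 to 408.3 on MG-U74Av2 and 84.24 to 200.5 on Mouse430_2.

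Sodium channel probe sets were mostly lower in NG than in DRG. Values were MAS5 signals scaled to a common trimmed mean, and differences were taken on the log2(signal + pseudocount) scale with limma, with Benjamini-Hochberg adjustment over all probe sets tested and a threshold of 0.05. In captured neurons on Mouse430_2, 19 of the 24 probe sets, covering all 8 genes, passed the filter on dim signals. Of these, 12 were lower in NG neurons, where the background over all 28107 tested was 12.5%, and 1 was higher, where the background was 9.72%. The 12 lower ones read 5 genes, so they are not separate members. The groups did not overlap on 5 of the 19, against 3.84% of all probe sets tested. Among the 12, Scn1a 1450121_at, Scn1a 1441728_at and Scn9a 1421660_at exceeded the 40th percentile on 3, 6 and 4 of 11 NG arrays. They could not pass the filter without DRG, so nothing is read from their part in these counts. Of them, 1450121_at is also among the 5. In captured neurons on MG-U74Av2, 4 probe sets were tested, of which 3 were lower in NG (background 11.3%) and none higher (10.4%), and these 3 did not overlap (16.3%). Of these 3, both Scn1a probe sets exceeded the 40th percentile on every DRG array and on no NG array. They passed the filter only through DRG and had to differ, so nothing is read from this count. In whole ganglia 5 were tested, of which 4, from 3 genes, were lower in NG (background 15.8%) and none higher (19.6%). Only Scn10a did not overlap (18.1%). At an unadjusted p under 0.05, the same 3 probe sets passed in captured neurons on MG-U74Av2 and the same 4 in whole ganglia. This threshold added no probe set, and nothing more is read from it. The median log2 difference of the tested sodium channel probe sets was -1.12 on Mouse430_2 and -0.54 in whole ganglia, against -0.05 and 0.05 over all probe sets tested. These medians describe the probe sets that passed the filter, not all members.

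**Figure D1:**
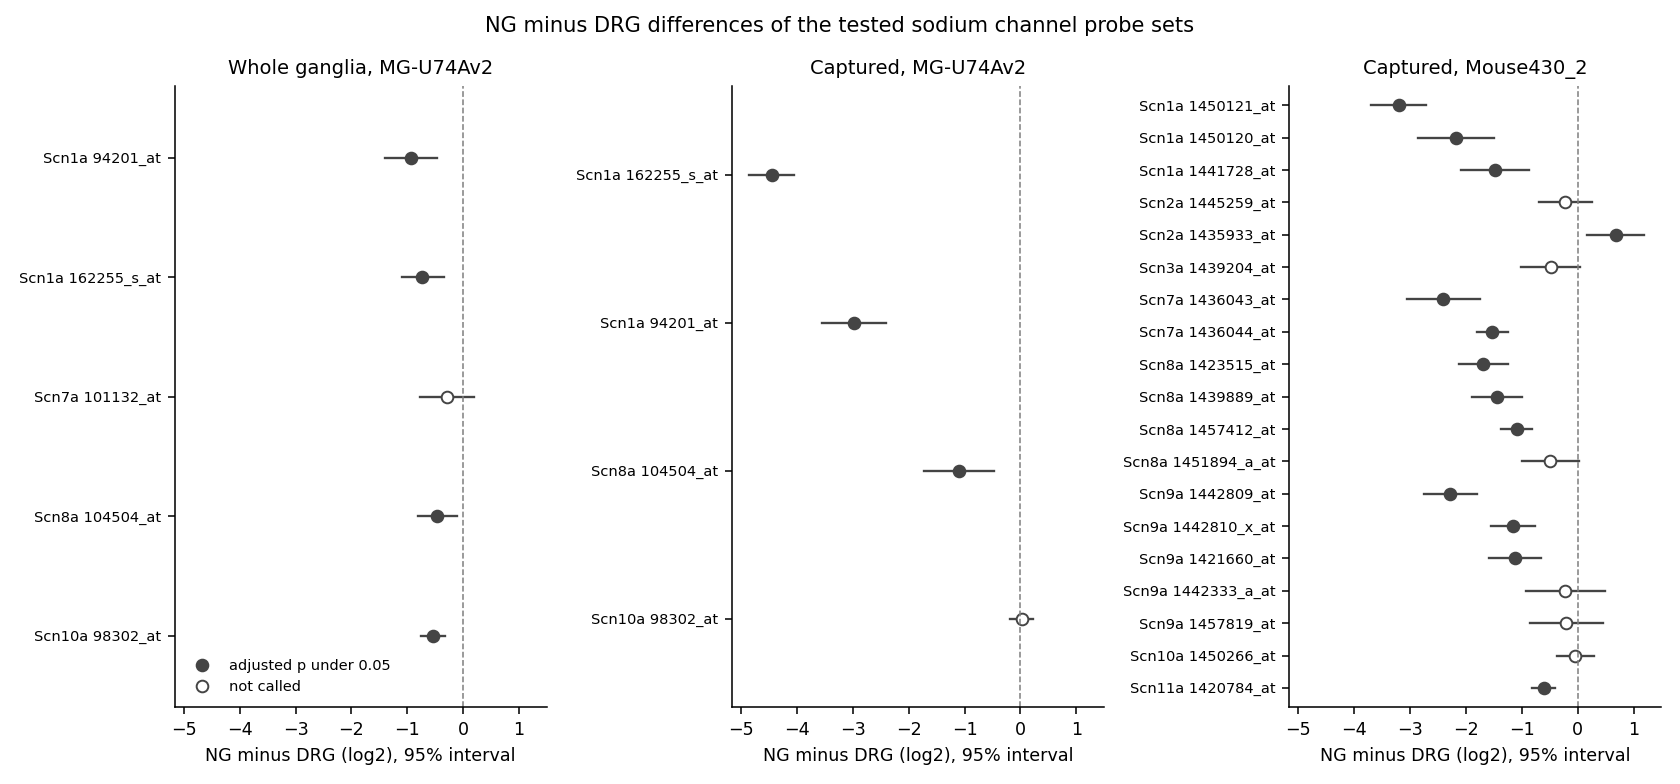
NG minus DRG difference on the log2 scale (x axis) of each tested sodium channel probe set (y axis) in the 3 experiments. Points are limma estimates, lines 95% confidence intervals, and filled points had an adjusted p under 0.05. All filled points lie left of 0 except Scn2a 1435933_at, at 0.68, and the Scn10a probe sets of captured neurons lie at 0.02 and -0.04.

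Scn1a, the tetrodotoxin-sensitive channel of large-diameter and fast mechanosensory afferents, was lower in NG in all 3 experiments, with the widest gap in captured neurons. On MG-U74Av2, 162255_s_at read 32.4, 14.1, 23.2, 27.5 and 34.3 in the captured NG samples. It read 1074, 668, 723, 716 and 829 in the captured DRG samples. Every captured DRG sample was brighter than every captured NG sample. This probe set passed the filter only through DRG, so this separation and the p-value that follows are a description, not a test result. The log2 difference was -4.45 (SE 0.192, adjusted p = 1.09e-09), which is 21.9-fold lower in NG on the scale of log2(signal + 11). The median NG array held this probe set at its 35.2nd percentile of all signals, against the 88.6th in DRG, so the NG level lies among dim probe sets and the fold is compressed by the pseudocount. Less Scn1a RNA per cell and fewer cells that contain it cannot be told apart in such pooled samples.

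The other Scn1a probe set of this array type, 94201_at, read 3.94, 3.21, 1.73, 6.04 and 4.51 in captured NG, at a median percentile of 5.1. In captured DRG it read 117, 109, 59.2, 92.5 and 185. The groups again did not overlap, but this probe set too passed the filter only through DRG, and its p-value is likewise a description. The log2 difference was -2.98 (SE 0.267, adjusted p = 2.42e-06), but the NG signals lay among the dimmest of their arrays (percentiles 1 to 12.4) and the size depended on the pseudocount: it was -4.51 with a pseudocount of 1 and -1.82 with one at the 40th percentile. On Mouse430_2, 1450121_at spanned 5.55 to 38.1 in 11 NG samples (median 15.1) and 111 to 516 in 9 DRG samples (median 189), without overlap. Its log2 difference was -3.20 (SE 0.234, adjusted p = 4.77e-11). It exceeded the 40th percentile on all 9 DRG arrays but on only 3 of 11 NG arrays, too few to pass the filter without DRG. Its p-value and lack of overlap are thus a description. The brighter 1450120_at spanned 23.5 to 248 in NG (median 101) and 195 to 1105 in DRG (median 453), with a difference of -2.18 (SE 0.331, adjusted p = 1.51e-05). The dim 1441728_at averaged 20.5 ± 11.3 in NG (SD, n = 11) and 74.2 ± 39.8 in DRG (SD, n = 9), and was lower in NG, with a log2 difference of -1.48 (limma adjusted p = 0.000474). With 6 of 11 NG arrays above the 40th percentile, 1441728_at too could not pass the filter without DRG, and its p-value is a description. All 3 Scn1a probe sets of Mouse430_2 thus moved the same way, and their deviations from the ganglion means correlated at 0.457 to 0.751 over 20 arrays.

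Whole ganglia showed a smaller Scn1a gap. On 162255_s_at, whole NG spanned 339 to 864 in 7 samples (median 421), and the whole DRG samples read 861, 679, 596, 862 and 855. The ranges overlapped through 1 NG sample, number 073, at 864, while the other 6 NG samples reached at most 466. The log2 difference was -0.73 (SE 0.179, adjusted p = 0.00427), and without sample 073 it was -0.88 (limma adjusted p = 2.38e-05). On 94201_at whole NG spanned 49.8 to 170 (median 77.2), against 163, 144, 189, 189 and 175 in whole DRG. Here sample 073 again gave the highest NG value, and the difference was -0.94 (SE 0.219, adjusted p = 0.00295). The same sample was the highest of whole NG on Scn7a 101132_at (70.8), Scn8a 104504_at (109) and Scn9a 100670_at (28.1), but not on Scn10a (2560).

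The Scn1a gap widened with capture. In one fit of the 4 MG-U74Av2 groups, 162255_s_at was lower in captured than in whole NG, with a log2 difference of -3.66 (SE 0.184, adjusted p = 2.52e-14), with no overlap. In DRG the captured minus whole difference was 0.05 (95% interval -0.36 to 0.46, adjusted p = 0.849). The change of the NG minus DRG difference with capture was -3.72 (SE 0.271, adjusted p = 5.43e-10). For 94201_at the captured minus whole difference was -2.65 in NG (adjusted p = 5.67e-10) and -0.64 in DRG (adjusted p = 0.0398, a call lost in 12 of 32 alternatives, with -0.45 without captured DRG sample 008), and the change was -2.01 (SE 0.343, adjusted p = 0.000157). Because captured NG was so dim on 94201_at, the size of this change too depended on the pseudocount, at -3.48 with a pseudocount of 1 and -1.01 with one at the 40th percentile. Both Scn1a probe sets exceeded the 40th percentile on no captured NG array and on every array of the other groups. They passed the filter only through those groups. The p-values that involve captured NG, and the lack of overlap, are thus a description, not a test result. On 162255_s_at the signal averaged 26.3 ± 8.1 in captured NG, 802 ± 163 in captured DRG, 477 ± 176 in whole NG and 771 ± 125 in whole DRG (SD, n = 5, 5, 7 and 5). Captured NG was thus lowest, whole NG next, and captured and whole DRG did not differ beyond their spread. Markers of large-diameter afferents, neurofilaments and Kcna1 among them, moved with it: their summed signal over 6 genes was 2294 to 2474 in captured NG, 7169 to 9317 in captured DRG, 4966 to 6555 in whole NG and 7572 to 9156 in whole DRG. Of these 6 genes, 5 were lower in captured NG than in captured DRG (background 11.3%), and their part in the Scn1a result was not tested.

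**Figure D2:**
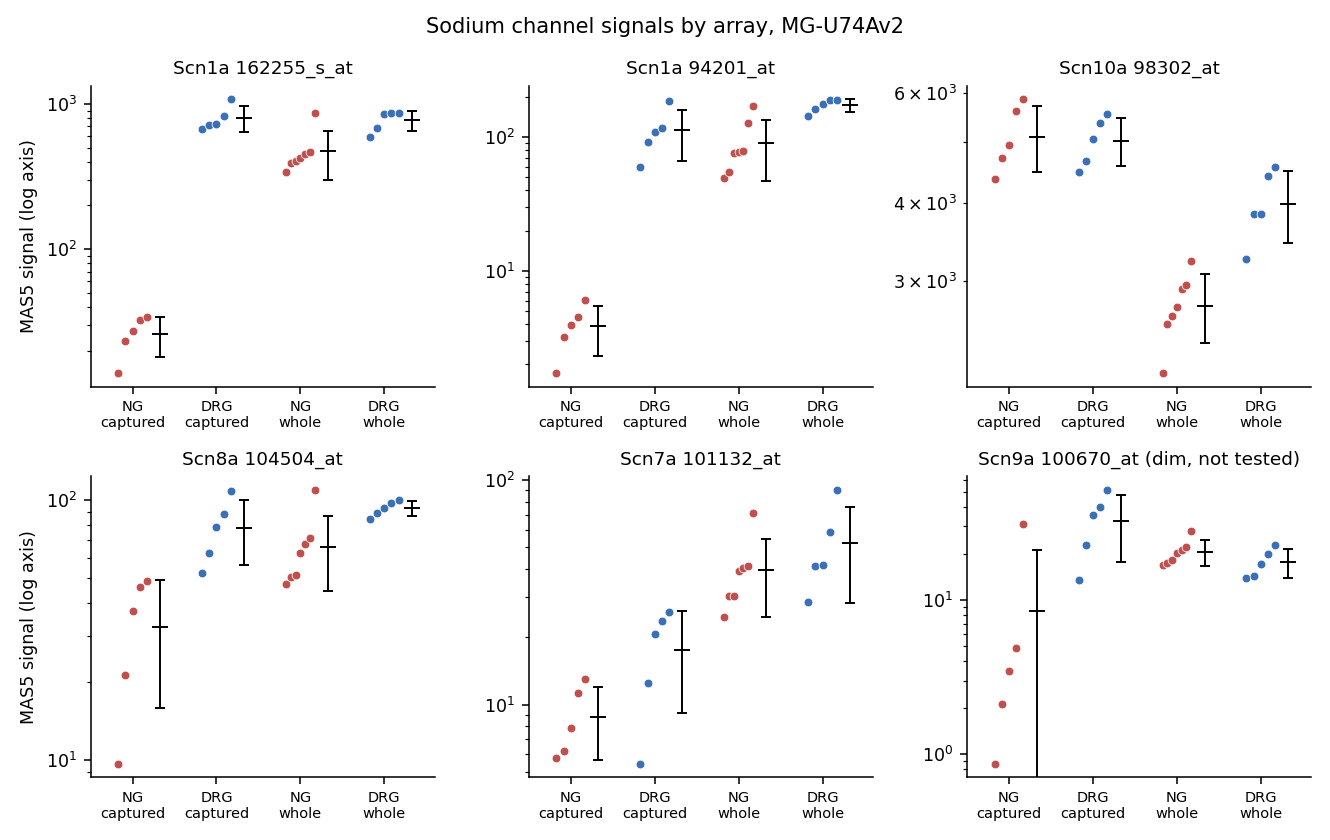
MAS5 signal on a log axis of 6 sodium channel probe sets in captured NG, captured DRG, whole NG and whole DRG on MG-U74Av2 (5, 5, 7 and 5 samples). Points are samples, and the bars beside them are the mean ± SD, whose lower end falls below the axis for Scn9a in captured NG. Scn1a is far lower in captured NG than in the other groups, and Scn10a overlaps between the captured groups but is lower in whole NG than in whole DRG.

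Scn10a, the tetrodotoxin-resistant channel that carries most of the action potential current of nociceptors, differed between whole ganglia but not detectably between captured neurons. In whole NG 98302_at spanned 2138 to 3224 (median 2727), and whole DRG read 3834, 4419, 3838, 4555 and 3249. All DRG samples exceeded all NG samples, and the log2 difference was -0.54 (SE 0.104, adjusted p = 0.000624). Captured NG read 4362, 4711, 5853, 5597 and 4954, and captured DRG read 5550, 4478, 5357, 4670 and 5060. These ranges overlapped almost fully, with a difference of 0.02 (95% interval -0.19 to 0.23, adjusted p = 0.928). On Mouse430_2, 1450266_at spanned 256 to 665 in NG (median 417) and 278 to 616 in DRG (median 416). The difference was -0.04, with a 95% interval of -0.37 to 0.29 (adjusted p = 0.89). Scn10a was higher in captured than in whole NG by 0.90 (SE 0.101, adjusted p = 3.92e-08) and in captured than in whole DRG by 0.34 (SE 0.109, adjusted p = 0.0118). The ganglion difference changed with capture by 0.56 (SE 0.149, adjusted p = 0.00936). The DRG value depended on the scaling: it was 0.11 after quantile normalization and 0.04 without scaling, neither called. The change with capture thus had opposite signs for Scn1a and Scn10a on the same 22 arrays.

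Scn11a, the other tetrodotoxin-resistant channel, which sets the resting excitability of nociceptors, was lower in captured NG neurons. It was read only by 1420784_at on Mouse430_2, which spanned 1274 to 2190 in NG (median 1522) and 1909 to 2955 in DRG (median 2305). The highest NG samples overlapped the lowest DRG samples. The log2 difference was -0.60 (SE 0.1003, adjusted p = 5.17e-05), and it lay between -0.74 and -0.45 in 34 alternative settings. Scn10a and Scn11a, neighbours on chromosome 9, did not vary together: over the 20 arrays the Pearson r of their log2 signals was 0.0208, and -0.0567 for deviations from the ganglion means.

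**Figure D3:**
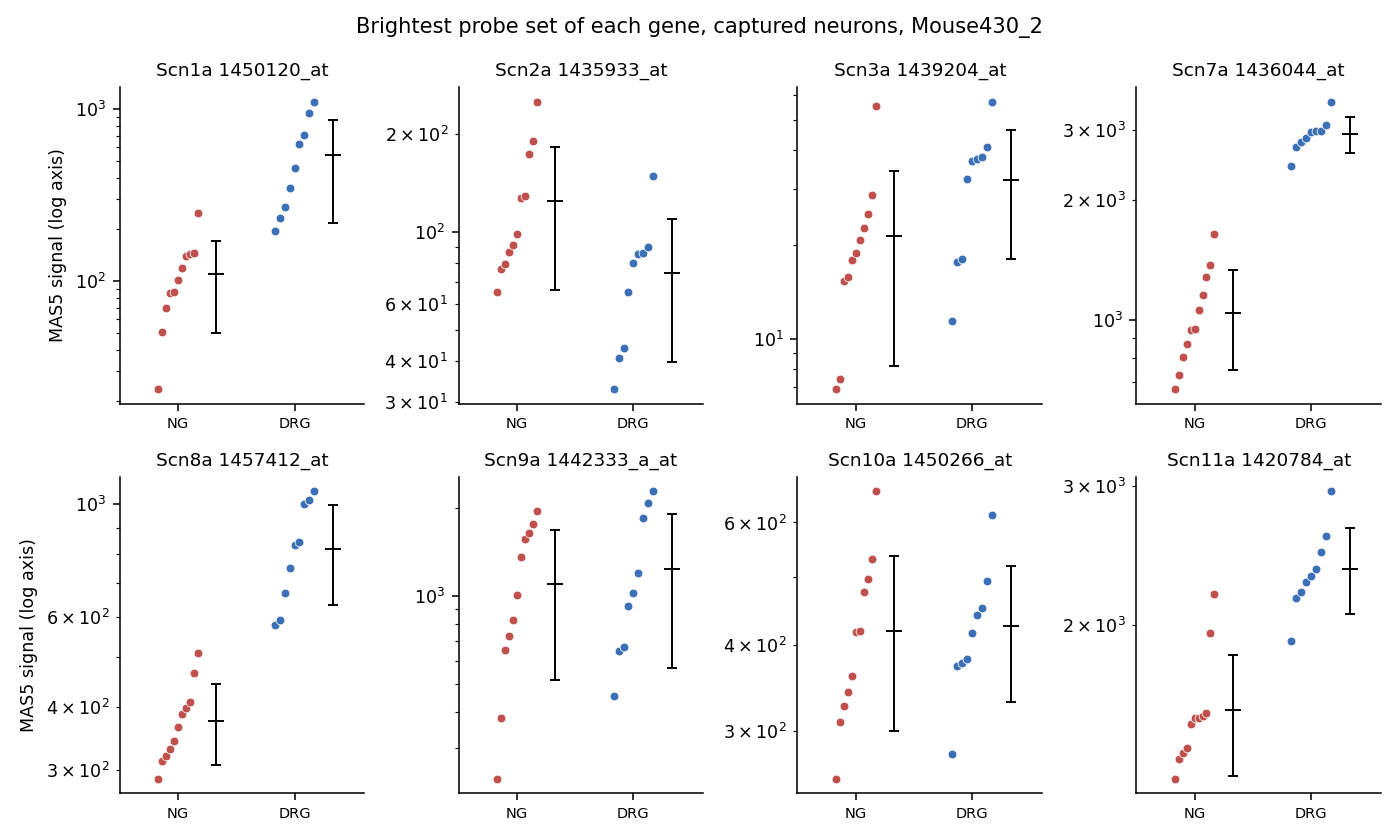
MAS5 signal on a log axis of the brightest probe set of each sodium channel gene in captured NG (11 samples) and captured DRG neurons (9 samples) on Mouse430_2. Points are samples and bars the mean ± SD. Scn7a and Scn8a are separated without overlap, Scn1a and Scn11a are lower in NG with some overlap, Scn2a is higher in NG, and Scn3a, Scn9a and Scn10a overlap widely.

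Scn9a, a tetrodotoxin-sensitive channel of nociceptors and sympathetic neurons whose loss abolishes pain in humans, gave 2 different pictures depending on the probe set. Of its 5 Mouse430_2 probe sets, 3 were lower in NG. The clearest, 1442809_at, spanned 26.5 to 88.6 in NG (median 62.5) and 132 to 448 in DRG (median 288), without overlap, with a log2 difference of -2.28 (SE 0.230, adjusted p = 2.04e-08). The next, 1442810_x_at, spanned 94.7 to 209 in NG (median 151) and 194 to 774 in DRG (median 325), overlapping slightly, with a difference of -1.16 (adjusted p = 3.63e-05). The dim 1421660_at gave -1.12 (adjusted p = 0.000452). It exceeded the 40th percentile on 4 of 11 NG arrays, too few to pass the filter without DRG, so its p-value is a description. The brightest pair, 1442333_a_at and 1457819_at, was not called, with differences of -0.22 (95% interval -0.92 to 0.49) and -0.20 (-0.85 to 0.45). Those 2 tracked each other over the 20 arrays (r = 0.967 for deviations from the ganglion means). They did not track the other 3, with r between -0.0753 and 0.1.

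The brightest pair split by sample number. Of the Mouse430_2 samples, 5 NG and 5 DRG samples carry a number also found among the captured MG-U74Av2 samples of that ganglion, and 6 NG and 4 DRG samples do not. Labels do not say what the numbers stand for, and this split was followed up after the Scn9a values were seen. Among shared numbers, 1442333_a_at read 1646, 1567, 1362, 1965 and 1764 in NG and 1196, 670, 647, 455 and 926 in DRG, higher in every NG sample. Among the numbers absent from MG-U74Av2 it read 1005, 652, 826, 728, 235 and 380 in NG and 1855, 2285, 1020 and 2090 in DRG, lower in every NG sample. In one fit over both sets, the NG minus DRG difference was 1.15 (SE 0.303, adjusted p = 0.00987) among shared numbers and -1.58 (SE 0.310, adjusted p = 0.000587) among absent ones. The change between the sets was -2.73 (SE 0.434, adjusted p = 0.00106). The partner 1457819_at behaved alike, with 1.11, -1.55 and a change of -2.65 (SE 0.376, adjusted p = 0.000579). By contrast 1442809_at was lower in NG in both sets, with differences of -2.48 and -2.10 (change 0.39, adjusted p = 0.772).

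Across all probe sets, 1.51% of 28107 had a called change between the number sets below 0 and 0.914% above 0. Among the 19 sodium channel probe sets, 3 had a called change below 0 and none above. Of these 3, 2 are the Scn9a pair that prompted the split, so nothing is read from this count. The third was Scn7a 1436043_at, lower in NG in both sets, with differences of -1.44 among shared and -3.46 among absent numbers (change -2.02, SE 0.513, adjusted p = 0.0347, lost in 14 of 30 alternatives, 9 of which left out 1 sample, with values of -2.05 to -1.79). With the Gapdh ratio described next as a covariate it was -1.46 (limma adjusted p = 0.366). Other measures moved with this split. The log2 ratio of the 3′ over the 5′ Gapdh control probe set, a measure of shortened or amplified RNA, had a median of 6.97 in NG and 6.68 in DRG among shared numbers, and of 6.44 in NG and 7.2 in DRG among absent ones. Summed signal of 10 neuron markers ran 21911 to 24693 in NG and 18967 to 22636 in DRG among shared numbers, and 19120 to 23024 in NG and 23845 to 28656 in DRG among absent ones. When the Gapdh ratio entered the fit as a covariate, the changes of the Scn9a pair were -2.59 (limma adjusted p = 0.0427) and -2.48 (limma adjusted p = 0.0323). The part of RNA quality or neuron content in the split was not tested further. On MG-U74Av2 the only Scn9a probe set, 100670_at, was too dim to test. It read 3.47, 4.9, 31, 2.13 and 0.87 in captured NG and 40.2, 13.4, 51.6, 22.7 and 35.6 in captured DRG, samples whose numbers are the shared ones.

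**Figure D4:**
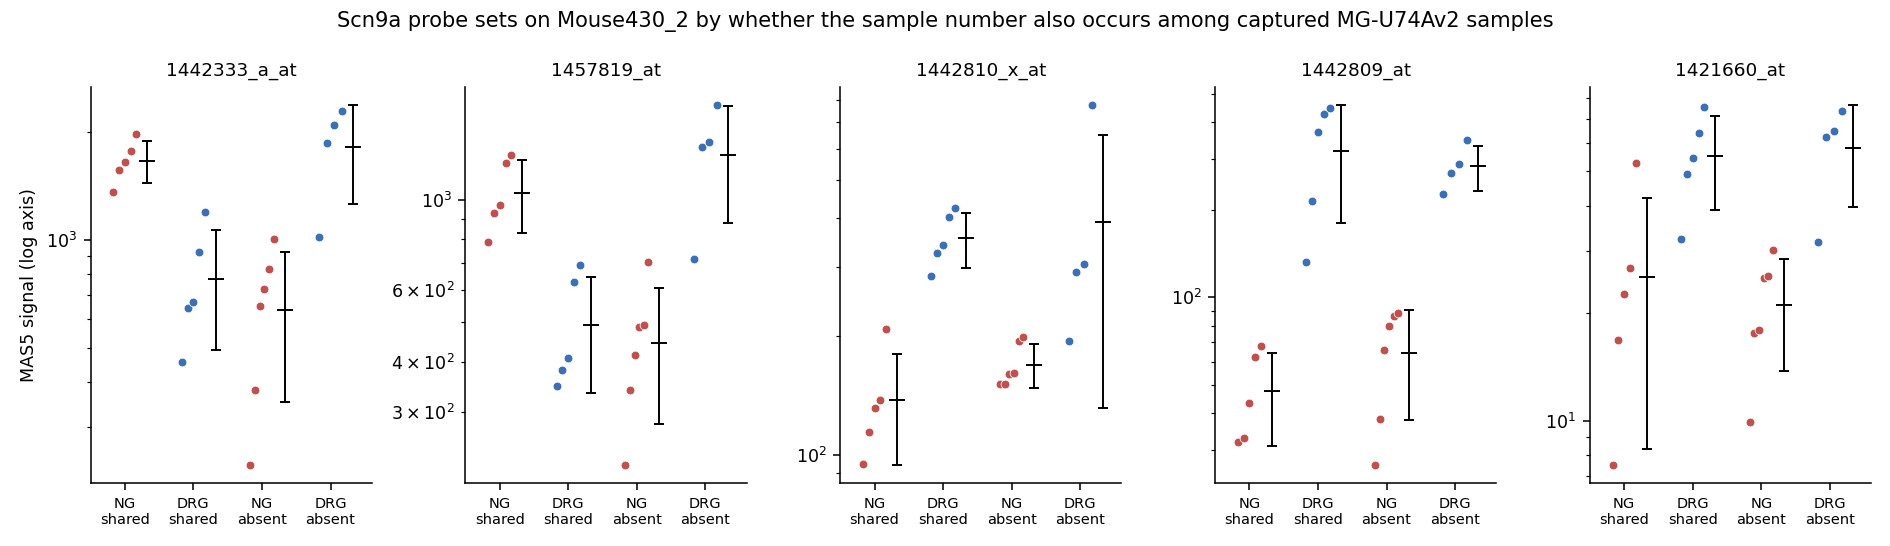
MAS5 signal on a log axis of the 5 Scn9a probe sets on Mouse430_2, for NG and DRG samples whose number also occurs among captured MG-U74Av2 samples (shared, 5 and 5) or does not (absent, 6 and 4). Points are samples and bars the mean ± SD. For 1442333_a_at and 1457819_at NG lies above DRG among shared numbers and below it among absent ones, while NG averages lie below DRG averages in both sets for the other 3.

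Scn8a, the channel concentrated at nodes of Ranvier and axon initial segments, was lower in NG neurons. On Mouse430_2 its brightest probe set, 1457412_at, spanned 288 to 511 in NG (median 364) and 580 to 1060 in DRG (median 830). The groups did not overlap, and the log2 difference was -1.09 (SE 0.136, adjusted p = 7.7e-07). The groups did not overlap on 1423515_at either, which spanned 153 to 533 in NG (median 311) and 602 to 1663 in DRG (median 895), with a difference of -1.69 (SE 0.218, adjusted p = 1.29e-06). On 1439889_at NG spanned 76.2 to 404 (median 222) and DRG 390 to 895 (median 557), with a difference of -1.45 (adjusted p = 1.16e-05). The last of those tested, 1451894_a_at, gave -0.49 (95% interval -1.0 to 0.02, adjusted p = 0.175) and 1442208_at was too dim to test. Within a ganglion the r of the deviations was -0.22 to -0.0108 between the 3 called ones, while 1423515_at and 1451894_a_at varied together (0.654).

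On MG-U74Av2, Scn8a 104504_at read 46.1, 9.71, 21.2, 48.6 and 37.3 in captured NG and 78.3, 108, 52.5, 62.7 and 88.3 in captured DRG. Every NG sample was below every DRG sample, with a log2 difference of -1.10 (SE 0.296, adjusted p = 0.0155). Only 3 of the 5 NG arrays held it above the 40th percentile, too few to pass the filter without DRG. Its p-value and lack of overlap are thus a description. The call ended with the Gapdh ratio as a covariate (-0.95, limma adjusted p = 0.0869) and with the sample number as a fixed block (-0.74, limma adjusted p = 0.0787). In whole ganglia it spanned 47.7 to 109 in NG (median 62.6) and read 84.6, 88.9, 99.6, 97 and 93.1 in DRG. The whole-ganglion difference was -0.47 (adjusted p = 0.0332), and this call ended when any of 7 samples was left out (NG samples 023, 026 and 036, DRG samples 026, 037, 070 and 084), with differences of -0.48 to -0.41 and adjusted p from 0.056 to 0.0717. Captured minus whole differences were -0.87 in NG (adjusted p = 0.00188) and -0.25 in DRG (adjusted p = 0.418), and the change with capture was -0.62 (95% interval -1.31 to 0.06, adjusted p = 0.203).

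Scn7a, the atypical sodium-sensing relative, was lower in captured NG neurons on Mouse430_2. The brightest probe set, 1436044_at, spanned 669 to 1639 in NG (median 950) and 2431 to 3531 in DRG (median 2956). The gap between the groups left no overlap, with a log2 difference of -1.53 (SE 0.133, adjusted p = 1.33e-09). The second, 1436043_at, spanned 48.4 to 298 in NG (median 119) and 237 to 1798 in DRG (median 793), with a difference of -2.41 (SE 0.320, adjusted p = 2.1e-06), with the number split given above. The third, 1427495_at, was too dim to test and averaged 8.66 ± 7.01 in NG (SD, n = 11) and 32.7 ± 13.8 in DRG (SD, n = 9). Since glia also make this RNA, their markers are given beside it. Of 11 tested glial genes 5 were lower in NG (background 12.5%) and none was higher (9.72%). Their summed signal over 12 genes was 11086 to 14197 in NG and 14056 to 16907 in DRG, and no deposited signal was 0. The part of glial RNA in the Scn7a difference was not tested.

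In whole ganglia Scn7a was not called. On MG-U74Av2, 101132_at averaged 39.6 ± 15.1 in whole NG (SD, n = 7) and 52.1 ± 23.8 in whole DRG (SD, n = 5), with a difference of -0.29 (95% interval -0.78 to 0.20, limma adjusted p = 0.372). It fell with capture in both ganglia, to 8.8 ± 3.17 in captured NG against 39.6 in whole NG, and to 17.6 ± 8.44 in captured DRG against 52.1 in whole DRG. The captured minus whole differences were -1.30 (adjusted p = 6.64e-05) and -1.12 (adjusted p = 0.00109), and the groups did not overlap in either ganglion. Every captured array held this probe set below its 40th percentile, so it passed the filter only through whole ganglia. Nothing is read from these p-values or from the lack of overlap. Both calls ended with the Gapdh ratio as a covariate (-0.92, limma adjusted p = 0.0774, in NG and -0.56, limma adjusted p = 0.506, in DRG). That ratio did not overlap between captured and whole samples of either ganglion. The change of the ganglion difference with capture, -0.19, was not called (95% interval -0.93 to 0.55, adjusted p = 0.765). Markers of satellite glia and Schwann cells fell with capture as well. In NG 8 of 10 tested genes were lower (background 29.2%) and 1 was higher (26.2%). In DRG 5 of 10 were lower (24.3%) and 2 were higher (22.9%), the latter near the background.

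Scn2a, the main channel of axons in the central nervous system, was the single member called higher in NG. On 1435933_at the signal spanned 65.1 to 251 in NG (median 98.4) and 32.8 to 148 in DRG (median 80.3), with wide overlap. The log2 difference of 0.68 (SE 0.249, adjusted p = 0.049) lay at the threshold and lost its call in 21 of 34 alternatives, 13 of which left out 1 sample, with values of 0.57 to 0.72. Another Scn2a probe set, 1445259_at, did not follow it (-0.22, 95% interval -0.70 to 0.26, adjusted p = 0.566; r of the deviations 0.00563). The dim 1427280_at averaged 21.9 ± 15.9 in NG and 12.9 ± 11.2 in DRG, and 1427281_at 4.86 ± 5.33 in NG and 2.86 ± 1.1 in DRG (SD, n = 11 and 9), and neither was tested. Scn3a, a channel of embryonic neurons that is re-expressed after nerve injury in rats, stayed dim. Its brighter probe set, 1439204_at, averaged 21.3 ± 13.2 in NG (SD, n = 11) and 32.2 ± 14.3 in DRG (SD, n = 9), with a difference of -0.48 (95% interval -1.01 to 0.05, limma adjusted p = 0.198). On MG-U74Av2 neither Scn3a 100691_at nor Scn8a 104505_at was bright enough to test, with group means of 4.83 to 6.98 and 1.93 to 2.55.

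Over the 4 MG-U74Av2 groups, 5 sodium channel probe sets were tested for capture. In NG, 4 were lower in captured neurons than in whole ganglia (background 29.2% of 8309) and 1 was higher (26.2%). In DRG, 2 were lower (24.3%) and 1 was higher (22.9%). The ganglion difference changed with capture for 3 of the 5, below 0 for 2 (background 10.5%) and above 0 for 1 (7.71%). In both ganglia the higher one was Scn10a. Among the lower ones in NG, both Scn1a probe sets and Scn7a 101132_at exceeded the 40th percentile on no captured NG array. Scn7a, also among the lower ones in DRG, did so on no captured DRG array. The 2 changes below 0 were the Scn1a probe sets. These probe sets passed the filter only through groups where they are brighter, so nothing is read from the counts of lower ones or of changes below 0. The log2 Gapdh 3′ over 5′ ratio, a measure of shortened or amplified RNA, differed along with capture. It averaged 6.63 in captured and 5.5 in whole NG, and 6.96 in captured and 5.33 in whole DRG. Amplification, named for these captured neurons, and RNA quality cannot be told apart in it. With that ratio as a covariate 3 of the 5 were called in NG by limma, and 0 in DRG, where adjusted p ran from 0.506 to 0.799 (162255_s_at -0.18, 94201_at -0.28, Scn10a 0.15 and Scn7a -0.56 in DRG), and in NG the Scn7a and Scn8a calls ended at -0.92 and -0.91. The ratio ran 6.42 to 6.93 in captured and 4.87 to 6.02 in whole NG, and 6.53 to 7.41 in captured and 5.18 to 5.5 in whole DRG. The covariate thus nearly repeats the capture contrast, and a call can end in this fit for that alone. The part of RNA quality was not tested.

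The genes whose signals were most like each member's brightest Mouse430_2 probe set were taken over the 20 arrays. These points share ganglion, array and brightness, so the values are a description. For Scn1a they were Ntrk3 (the neurotrophin-3 receptor; r = 0.952), Ramp3 (a receptor activity-modifying protein; 0.926) and Gria1 (an AMPA receptor subunit; 0.922), and Ntrk3 also led by deviations from the ganglion means (r = 0.865). For Scn7a they were the protease Htra1 (0.964), the calmodulin regulator Pcp4 (0.961) and the sodium channel beta subunit Scn4b (0.96). Scn11a was most like Hopx (0.913), Slit1 (0.912) and Ank1 (0.909), and Scn8a most like Pon2 (0.924). Scn9a 1442333_a_at was most like Tmx4, Ppp2r2c and Psmd7, at 0.912 to 0.944 by deviations. For Scn10a the highest r was 0.791 over all arrays, with the phosphate exporter Xpr1, and 0.794 by deviations, with Dna2. Among the members themselves, Scn1a and Scn11a were the most alike pair within ganglia (r of the deviations 0.684), followed by Scn1a and Scn7a (0.489).

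Of 24 listed partners and regulators of sodium channels, 20 genes were tested in captured neurons on Mouse430_2. There 9 were lower in NG (background 12.5%) and 2 higher (9.72%, so 2 of 20 is near the background), with a median log2 difference of -0.42, against -0.05 over all probe sets tested. The beta subunit Scn4b, which supplies the blocker of resurgent current, averaged 119 in NG and 1613 in DRG (-3.82, SE 0.228, adjusted p = 9.06e-13). Next came the axonal adhesion molecules Cntn1 (573 in NG and 1815 in DRG, -1.65, adjusted p = 1.71e-09) and Nrcam (540 in NG and 1117 in DRG, -1.06, adjusted p = 2.15e-07). The higher ones were the beta subunits Scn3b (2425 in NG and 932 in DRG, 1.37, adjusted p = 4.85e-10) and Scn2b (756 in NG and 473 in DRG, 0.70, adjusted p = 0.000993). The beta subunits that were tested thus did not move one way.

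On MG-U74Av2, 3 of 10 tested partners were lower in captured NG neurons (background 11.3%) and none was higher (10.4%). These were Cntn1 (-1.55, adjusted p = 5.54e-05), Nrcam (-1.23, adjusted p = 0.00537) and Nedd4l, a ubiquitin ligase of sodium channels (-1.09, adjusted p = 1.47e-05). In whole ganglia 4 of 9 were lower (background 15.8%) and 2 higher in NG (19.6%), and 2 of 9 is near the background. The lower ones included the axon initial segment organiser Ank3 (-1.0, adjusted p = 0.000142), Cntn1 (-0.95) and Nedd4l (-0.94), and the higher ones were Nrcam (0.58, adjusted p = 0.00157) and S100a10, which helps carry the Scn10a channel to the membrane (0.22, adjusted p = 0.0325). Nrcam was thus higher in whole NG and lower in captured NG neurons, each against DRG.

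**Figure D5:**
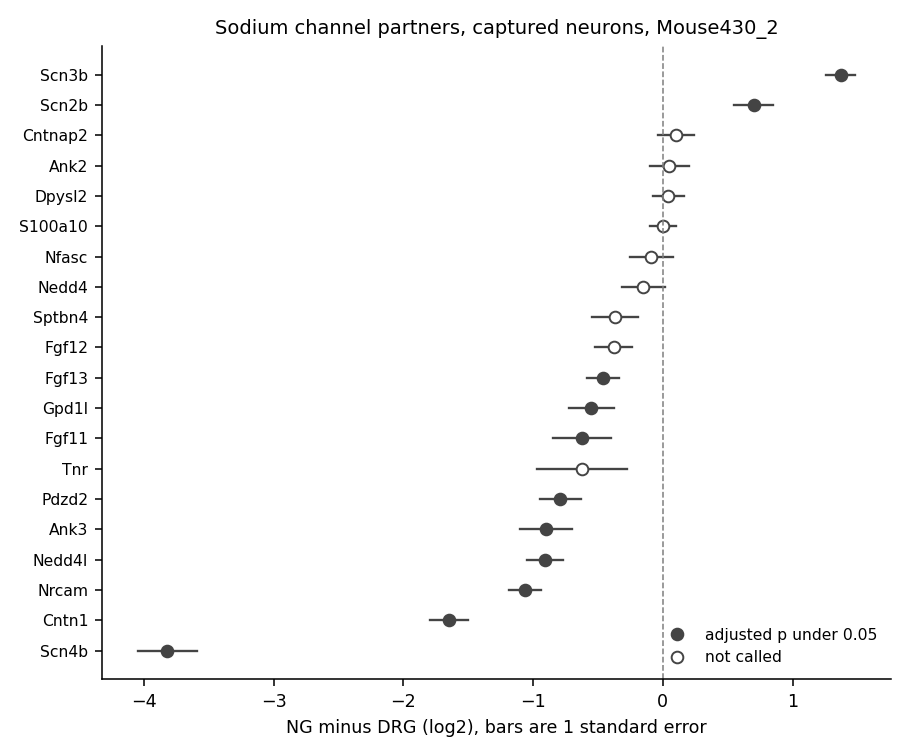
NG minus DRG difference on the log2 scale (x axis) of the 20 tested partners and regulators of sodium channels (y axis) in captured neurons on Mouse430_2. Points are limma estimates, bars 1 standard error, and filled points had an adjusted p under 0.05. Scn4b lies lowest at -3.82, and Scn3b and Scn2b lie highest at 1.37 and 0.70.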

How the data were processed

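The deposited values are signal intensities, 1 per probe set and array on a linear scale, which the authors computed by the MAS5 algorithm (per the submitters' processing notes).  Its version, scaling target and detection calls are not given in the sources used here, and the number of arrays and signal over background limit the precision.

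Samples were grouped by title. Signals of each array were scaled to the common trimmed mean of its array type (2% trimmed at each end), 253 on MG-U74Av2 and 141.2 on Mouse430_2. A pseudocount at the 20th percentile was added (11.7 for whole ganglia, 11 and 7.48 for captured neurons on MG-U74Av2 and Mouse430_2, 11.4 for the 4 groups together) before log2. A probe set was tested if it exceeded the 40th percentile of its array on a number of arrays equal to the smaller group's size or more. Differences were tested with limma 3.58.1 in R 4.3.3 (lmFit, eBayes with trend and robust), once per experiment and once over the 4 MG-U74Av2 groups, with Benjamini-Hochberg adjustment over all tested probe sets. The fits were tested on simulated data. Symbols came from the platform annotation, updated through Entrez identifiers. Of 12488 MG-U74Av2 probe sets 10855 had 1 symbol, 396 several and 1237 none, and of 45101 on Mouse430_2 the numbers were 34958, 932 and 9211.

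All member probe sets are reported, and the brightest leads. Listed partners were counted by direction, with up to 3 named per direction and comparison by size. The 3 most alike genes were ranked by Pearson r. One list of marker genes is not reported here. The members and lists were chosen with earlier results of these data known. Sample numbers were not used to pair NG with DRG samples in the main fits. Deviations of same-numbered samples correlated at -0.106 to 0.111 in 4 pairs on MG-U74Av2 and -0.154 to 0.155 in 7 pairs on Mouse430_2. So few pairs from 2 tissues cannot show whether a shared number means a shared animal. Alternatives changed scaling, pseudocount, filter, weights, eBayes options, Gapdh ratio, block and samples. The split of Mouse430_2 by sample number was added after the data were seen.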

Additional observations from a re-analysis of the deposited data

Results flagged for a closer look

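On Scn1a 162255_s_at, whole NG sample 073 read 864, against 339 to 466 in the other 6 whole NG samples, and stood apart by Dixon's criterion. On Scn1a 1450121_at, captured DRG sample 015 on Mouse430_2 read 516, against 111 to 238 in the other 8. Of 37 groups of 4 to 10 samples examined in this way 2 stood apart, where chance alone flags about 5% of such groups.

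The NG minus DRG difference changed with capture on MG-U74Av2 by -3.72 for Scn1a 162255_s_at, by -2.01 for Scn1a 94201_at and by 0.56 for Scn10a 98302_at, each past the threshold of the interaction test. Both Scn1a probe sets exceeded the 40th percentile on no captured NG array and passed the filter only through the other groups, so their changes are a description. Between Mouse430_2 sample numbers absent from and shared with the captured MG-U74Av2 samples the NG minus DRG difference changed by -2.73 for Scn9a 1442333_a_at, by -2.65 for Scn9a 1457819_at and by -2.02 for Scn7a 1436043_at, in an interaction test chosen after seeing the data.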

How the results depend on the processing

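Of the results for single probe sets under alternative settings, 1307 kept their direction and side of the threshold, 65 lost a call, 3 gained one and 19 changed sign. The counts of called sodium channel probe sets moved beyond 1.5 times under a stricter filter (60th percentile) to 1 for captured NG minus DRG on MG-U74Av2 and to 3 for captured minus whole NG, where fewer probe sets are tested, under the Gapdh covariate to 3 for captured minus whole NG and to 0 for captured minus whole DRG, and under quantile normalization to 1 for captured minus whole DRG; the cause was not tested for the last 2 settings. Leaving out 1 sample at a time gave 3 to 4 calls in whole ganglia, 3 to 3 and 12 to 13 for captured neurons on MG-U74Av2 and Mouse430_2, 4 to 5 and 2 to 3 for capture in NG and DRG, 3 to 3 for the change with capture and 2 to 3 for the change between number sets. With the replicate block (duplicateCorrelation) there were 3 calls on MG-U74Av2 and 13 on Mouse430_2, and with the replicate block as a fixed term 2 and 12. The labels do not say what a shared number stands for. Signs changed only for differences that the main fit did not call. Scn10a of captured neurons gave, on MG-U74Av2, -0.04 with quantile normalization, -0.06 without scaling and -0.04 to 0.07 with 1 sample left out. On Mouse430_2 Scn10a gave 0.11 with equal medians, 0.06 with the fixed block, 0.25 among shared numbers and -0.11 to 0.03 with 1 sample left out. Among shared numbers alone Scn9a 1442333_a_at and 1457819_at gave 1.15 and 1.10 (limma adjusted p = 0.000932 and 0.00126), so these reversed values were called. Among absent numbers they gave -1.58 and -1.55 (limma adjusted p = 0.00468 and 0.00155). Scn2a 1445259_at gave 0.02 among absent numbers, Scn1a 162255_s_at in captured minus whole DRG gave -0.24 without scaling, -0.18 with the Gapdh covariate and -0.06 to 0.11 with 1 sample left out, and the change of Scn7a with capture gave 0.05 without scaling. Equal medians moved the median of all probe sets by -0.11 in whole ganglia, 0.14 on Mouse430_2, 0.16 for capture in NG and 0.12 for the change with capture, and the share of higher calls there to 40%, 63.5%, 60.9% and 59.9%, against 55.3%, 43.7%, 47.3% and 42.4%. Without scaling it was 11.9% in whole ganglia, 35.4% (against 47.9%) and 24.4% for captured neurons on MG-U74Av2 and Mouse430_2, 17.9% (against 48.5%) for capture in DRG, 69.3% for the change with capture and 85.6% (against 37.7%) for the change between number sets. Dim probe sets limit Scn2a, Scn3a and, on MG-U74Av2, Scn7a, Scn8a and Scn9a.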

Other observations

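Further counts of marker lists follow, beside a background in captured neurons on Mouse430_2 of 9.72% higher and 12.5% lower over all 28107 probe sets tested. In captured neurons on Mouse430_2, of 5 tested nociceptor markers (such as Trpv1 and Tac1) 4 were lower and 1 higher in NG, and of 6 large-diameter afferent markers 6 were lower. Skeletal muscle markers, the cells where Scn4a acts, had 1 of 6 tested genes higher and 1 lower in NG. Endothelial markers had 2 of 7 higher and 1 lower, and of 4 tested macrophage markers limma called none. Of 10 neuron markers 3 were higher and 2 lower. The muscle, endothelial, macrophage and neuron lists are short, and nothing is read from their counts.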
